A study of Mus musculus with 12 samples.

Results

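The genes described here are 35 genes, listed by name, of the unfolded protein response, of the integrated stress response with its amino acid genes and of the heat shock response, in mouse macrophages treated with lipopolysaccharide (LPS). Members were the non-control probes whose accession belonged to one of these genes. Of the 35 genes, 34 had at least 1 such probe and Hspa1b had none. The 34 genes carried 43 probes of the 27509 named probes on the array, and all 34 were among the 13116 genes tested of 20887 named ones. The tested probe of every one of the 34 was well above background on all 12 arrays.

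The cells were bone marrow-derived macrophages (BMDM), cells grown out of marrow for 5 to 7 days in macrophage colony-stimulating factor, from male C57BL6 mice aged 6 to 8 weeks. One-colour Agilent arrays measured 4 groups of 3: ERRα+/+ cells with PBS (the solvent control), ERRα+/+ cells with 100 ng/mL LPS, ERRα-/- cells with PBS and ERRα-/- cells with 100 ng/mL LPS. ERRα, encoded by Esrra, is an orphan nuclear receptor known for its control of mitochondrial and energy metabolism genes. The labels call the ERRα-/- animals knock-out mice and say nothing more of the deletion, so the marrow cells carried it while they differentiated. The time under LPS and the number of mice behind each array are not given in the sources used here, so p-values measure the spread between these arrays, which may be partly technical. The comparisons ask how LPS changes these stress genes, and whether the response or the resting level depends on ERRα.

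The unfolded protein response is set off when unfolded proteins gather in the endoplasmic reticulum (ER). Its sensors ATF6, IRE1 (Ern1) and PERK (Eif2ak3) raise ER chaperones through cleaved ATF6 and spliced XBP1, while PERK slows translation by phosphorylating eIF2. The integrated stress response is the branch that several kinases share: phosphorylated eIF2 favours translation of ATF4, which raises genes for amino acid uptake and synthesis, CHOP (Ddit3) and the feedback phosphatase subunit GADD34 (Ppp1r15a). The heat shock response, driven by HSF1, raises cytosolic and mitochondrial chaperones.

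Levels are log2 processed signals minus the 75th percentile of their own array, so they compare arrays for 1 probe and not probes with each other. Triplets of values are always given in the order replicate 1, 2, 3, and those for PBS before those for LPS. Replicate 1 of each group lay on 1 slide (slide 1, 4 arrays) and replicates 2 and 3 on another (slide 2, 8 arrays). Over all tested genes, the median absolute log2 difference between replicates 2 and 3 of a group was 0.0768 to 0.167, against 0.343 to 0.488 between replicate 1 and either of them. Repeat spots of 1 probe on 1 array differed by a median of 0.0438 to 0.182, the 2 highest values being those of ERRα+/+ PBS replicates 2 and 3. On a principal component analysis, 76.1% of the variance lay on the first component. The share of probes well above background was 45.4% to 56.7% per array, the 75th percentile of signal 288.8 to 609.8, and no spot was saturated.

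Esrra stood at 4.54, 4.39 and 4.68 in ERRα+/+ PBS, 5.87, 6.25 and 6.36 in ERRα+/+ LPS, 2.48, 0.25 and 0.14 in ERRα-/- PBS and 4.40, 3.92 and 3.83 in ERRα-/- LPS. It was lower in ERRα-/- cells under PBS, with a difference of -3.58 ± 0.51 (SE, adjusted p = 0.0225), and the difference of -2.11 ± 0.51 (SE, adjusted p = 0.202) under LPS did not pass the test, although no ERRα-/- array reached the lowest ERRα+/+ array of its treatment. The PBS call was lost without any 1 of replicates 2 and 3 of ERRα+/+ PBS or ERRα-/- PBS (adjusted p up to 0.123), without the filter on dim probes (adjusted p = 0.065) and with replicates 2 and 3 averaged. The sources used here do not say where the probe lies relative to the deleted part, and its signal was higher in ERRα-/- replicate 1 under PBS than in replicates 2 and 3. The LPS response genes Tnf, Nos2 and Il1b rose by 7.58, 7.02 and 8.86 in ERRα+/+ cells and by 6.92, 7.34 and 7.51 in ERRα-/- cells. Il6, not well above background in either PBS group, was at least 3138-fold higher with LPS in ERRα+/+ cells and at least 3109-fold higher in ERRα-/- cells, taking the lowest signal among probes above background as the floor on each PBS array. All 9 macrophage markers with a probe were above background on all 12 arrays, as were 7 of 8 neutrophil and granulocyte precursor markers. The summed linear level of 5 mast cell and basophil markers was 2.16 to 2.25 in ERRα+/+ PBS and 6.40 to 52.2 in ERRα+/+ LPS arrays, and 1.08 to 1.72 and 12.6 to 56.1 in ERRα-/- arrays, with Fcer1a above background on none. For 7 dendritic cell markers it was 2.12 to 3.64 and 7.96 to 8.99 in ERRα+/+ arrays, and 0.947 to 6.17 and 6.71 to 23.0 in ERRα-/- arrays, with Xcr1 above background on none. The 4 erythroid and megakaryocyte markers above background on all arrays summed to 73.5 to 117 and 143 to 204 in ERRα+/+ arrays, and to 63.3 to 68.9 and 101 to 109 in ERRα-/- arrays. The 7 stromal and endothelial markers summed to 4.84 to 9.86 and 10.2 to 15.3, and to 3.16 to 3.60 and 6.19 to 11.8. The sums of these 4 lists were higher with LPS without overlap in both genotypes. A linear sum follows its brightest genes, and marker by marker the direction was mixed in ERRα+/+ cells. There 1 of 6 tested stromal and endothelial markers was higher with LPS (median log2 difference -0.41). Of 4 mast cell and basophil markers 2 were higher (-0.05), and of 4 erythroid and megakaryocyte markers 2 (0.04). Of 6 dendritic cell markers 4 were higher (0.755). In ERRα-/- cells the counts were 5, 4, 4 and 4 in that order, with medians of 0.46, 0.76, 0.58 and 0.685. The 9 macrophage markers summed to 846 to 1478 and 1532 to 1825, and to 1141 to 1603 and 1602 to 2008. The 9 lymphocyte markers, with Cd8a and Ncr1 above background on none, summed to 9.45 to 10.2 and 9.09 to 10.4, and to 8.62 to 11.7 and 8.79 to 15.03. The part of such cells in the LPS differences below was not tested. In RNA from whole cultures, more cells of a kind and more RNA per cell cannot be told apart.

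LPS split the stress genes. In ERRα+/+ cells 19 of 34 members changed (limma on all 12 arrays, Benjamini-Hochberg adjusted p under 0.05), 13 upwards and 6 downwards, and in ERRα-/- cells 19 changed, 15 upwards and 4 downwards. Every call among the integrated stress response and amino acid genes was a rise and every call among the ER stress sensors a fall, while the ER folding genes gave 2 falls in each genotype and 1 rise in ERRα-/- cells. Of the 7 heat shock genes tested, 4 rose in both genotypes and 1 fell in ERRα+/+ cells. Among all 13116 genes, 22.2% rose and 23.7% fell in ERRα+/+ cells, and 25.1% rose and 25.3% fell in ERRα-/- cells. The median log2 difference over the 34 members was 0.70 in ERRα+/+ and 0.54 in ERRα-/- cells, beside 0.02 and 0.05 over all genes tested.

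**Figure D1:**
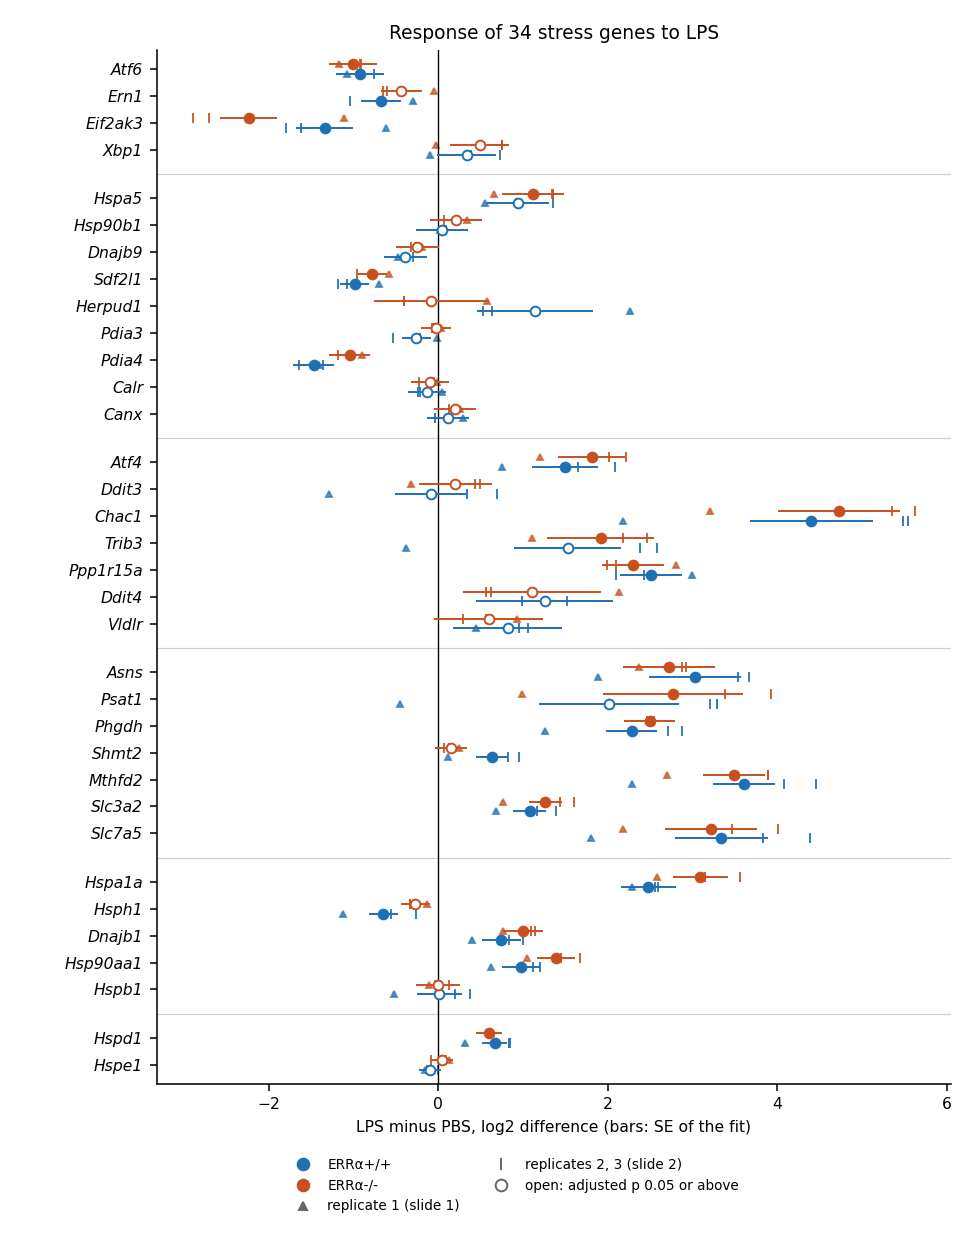
Difference between LPS and PBS (log2, x axis) of each of the 34 members, in ERRα+/+ (blue) and ERRα-/- (orange) cells; circles are the means of 3 replicates with the standard error of the fit, filled where the adjusted p was under 0.05, and triangles and ticks are the single replicates. Chac1 lies farthest to the right at 4.41 and 4.73, and Eif2ak3 of the ERRα-/- cells farthest to the left at -2.24.

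The same-numbered arrays of different groups deviated together, and a fit with the replicate number as a block called more members: 26 in ERRα+/+ (19 upwards, 7 downwards, against 30.2% and 30.3% of all genes) and 22 in ERRα-/- cells (17 upwards, 5 downwards, against 32.5% and 31.2%). On slide 2 alone 29 were called in ERRα+/+ cells (21 upwards, 8 downwards, against 36.5% and 35.8%). Because replicates 2 and 3 were so close, the fit was also run with the mean of both as 1 value per group, a choice made after seeing the data. It called 7 members in ERRα+/+ cells (6 upwards, 1 downwards, against 7.01% and 7.22% of all genes) and 9 in ERRα-/- cells (8 upwards, 1 downwards, against 8.23% and 9.18%). Chac1, Ppp1r15a, Phgdh, Mthfd2, Slc7a5 and Hspa1a rose in that fit in both genotypes. Pdia4 fell in ERRα+/+ cells, Eif2ak3 fell in ERRα-/- cells, and Slc3a2 and Hsp90aa1 rose in ERRα-/- cells. With quantile normalization the ERRα+/+ split was 11 upwards and 8 downwards (against 18.4% and 28.4% of all genes) and the ERRα-/- split 13 and 5 (against 20% and 30.1%). On that scale the median of all genes moved to -0.14 in ERRα+/+ and -0.15 in ERRα-/- cells.

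Of the 3 sensors and Xbp1, 3 genes fell in ERRα+/+ cells (against 23.7% of all genes) and 2 in ERRα-/- cells (against 25.3%), and none rose. Eif2ak3, which encodes PERK, stood at 1.26, 1.36 and 1.71 with PBS and 0.65, -0.26 and -0.08 with LPS in ERRα+/+ cells, and at 0.90, 1.80 and 1.97 and -0.22, -0.91 and -0.93 in ERRα-/- cells. PBS and LPS arrays overlapped in neither genotype. Eif2ak3 fell by 1.34 ± 0.33 (SE, adjusted p = 0.00789) in ERRα+/+ and by 2.24 ± 0.33 (SE, adjusted p = 0.000418) in ERRα-/- cells. The LPS difference was -0.61 on slide 1 and -1.71 on slide 2 in ERRα+/+ cells, and -1.11 and -2.80 in ERRα-/- cells. Atf6, the sensor that is itself cut to a transcription factor, fell by 0.93 ± 0.28 (SE, adjusted p = 0.0206) in ERRα+/+ and by 1.0 ± 0.28 (SE, adjusted p = 0.0129) in ERRα-/- cells, from 1.16, 0.31 and 0.38 to 0.08, -0.45 and -0.57 and from 1.17, 0.61 and 0.48 to -0.002, -0.30 and -0.44. The ERRα+/+ call was lost without any 1 of ERRα+/+ PBS replicate 1, LPS replicate 2 or LPS replicate 3 (adjusted p up to 0.0802). Ern1, which encodes the XBP1-splicing kinase IRE1, fell by 0.68 ± 0.24 (SE, adjusted p = 0.0411) in ERRα+/+ cells, and its difference of -0.44 ± 0.24 (SE, adjusted p = 0.156) in ERRα-/- cells did not pass. The ERRα+/+ call rested near the threshold: it was lost with median centring (-0.72, adjusted p = 0.0532), without the filter on dim probes (adjusted p = 0.0857) and without any 1 of 9 arrays, all but replicate 1 of ERRα+/+ PBS, ERRα-/- PBS and ERRα-/- LPS (adjusted p up to 0.152). Xbp1 had 5.77, 6.18 and 6.08 with PBS and 5.67, 6.56 and 6.80 with LPS in ERRα+/+ cells, a difference of 0.34 ± 0.35 (SE, adjusted p = 0.452), and 0.49 ± 0.35 (SE, adjusted p = 0.263) in ERRα-/- cells. Replicate 1 of Xbp1 was slightly lower with LPS in both genotypes, and replicates 2 and 3 were higher. With quantile normalization both Xbp1 differences turned to -0.14 and -0.07 (adjusted p = 0.672 and 0.829). On slide 2 alone Xbp1 rose in both genotypes, by 0.56 and 0.75 (adjusted p = 0.00249 and 0.000591), as it did with array weights (adjusted p = 0.0108 and 9.43e-05). In ERRα-/- cells it also rose with the slide as a block (adjusted p = 0.0384) and without LPS replicate 1 (0.87, adjusted p = 0.0342). The array reads total Xbp1 RNA and not its splicing.

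Of 9 genes for ER chaperones, folding enzymes and ERAD (ER-associated degradation), none rose and 2 fell in ERRα+/+ cells. Among all genes 22.2% rose and 23.7% fell there, and the median difference of the 9 was -0.14. In ERRα-/- cells 1 rose and 2 fell, against 25.1% and 25.3% of all genes, with a median of -0.08. With the replicate block 5 passed in ERRα+/+ cells, 2 upwards and 3 downwards (against 30.2% and 30.3% of all genes). In ERRα-/- cells 4 passed, 1 upwards and 3 downwards (against 32.5% and 31.2%). Promoter windows were set beside these values because ATF6 and XBP1 are known to act through short elements. In RefSeq's GRCm38.p6 table, which gives 250 bases before and 50 after a start site, 32 members had 37 windows. The ER stress element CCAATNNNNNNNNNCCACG, searched on both strands, was in 39 of all 32851 windows (0.119%) and in those of 4 members, all ER chaperones: Hspa5, Hsp90b1, Calr and Canx. The UPR element core TGACGTGG, found in 0.676% of all windows, was in none of the members' windows. The stretches below carry the ER stress element in capitals, in the direction of the gene (a match that begins with the letters of the complement lies on the opposite strand).
Hspa5 (chr2:34772013-34772055, + strand): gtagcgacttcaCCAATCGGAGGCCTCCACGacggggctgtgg
Calr (chr8:84847063-84847105, - strand): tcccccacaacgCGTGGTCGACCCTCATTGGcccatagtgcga
Canx (chr11:50325788-50325830, - strand): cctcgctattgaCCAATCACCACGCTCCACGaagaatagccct
Hsp90b1 (chr10:86705521-86705668, - strand): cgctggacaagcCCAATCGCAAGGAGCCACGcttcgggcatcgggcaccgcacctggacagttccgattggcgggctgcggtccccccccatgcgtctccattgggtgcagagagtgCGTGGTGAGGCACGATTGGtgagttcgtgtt

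The 4 genes with that element gave 1 call, the rise of Hspa5 in ERRα-/- cells, where 25.1% of all genes rose. Hspa5, the ER HSP70 known as BiP, stood at 6.16, 6.28 and 6.90 with PBS and 6.71, 7.63 and 7.82 with LPS in ERRα+/+ cells, and at 6.38, 6.78 and 6.74 and 7.04, 8.14 and 8.08 in ERRα-/- cells. ERRα+/+ LPS replicate 1 lay below ERRα+/+ PBS replicate 3, while the ERRα-/- groups did not overlap. The difference of 0.94 ± 0.36 (SE, adjusted p = 0.0557) did not pass in ERRα+/+ cells, and Hspa5 rose by 1.12 ± 0.36 (SE, adjusted p = 0.0252) in ERRα-/- cells. With the replicate block it rose in both (adjusted p = 0.00444 and 0.00169). The ERRα-/- call was lost without any 1 of ERRα-/- PBS replicate 1 or 3 or ERRα-/- LPS replicate 2 or 3 (adjusted p up to 0.0959) and with quantile normalization (0.61, adjusted p = 0.0721). Hsp90b1, the ER HSP90 known as GRP94, differed by 0.05 ± 0.31 (SE, adjusted p = 0.913) and 0.21 ± 0.31 (SE, adjusted p = 0.595). For Calr and Canx, the lectin chaperones calreticulin and calnexin, the differences were -0.14 ± 0.22 (SE, adjusted p = 0.645) and 0.12 ± 0.25 (SE, adjusted p = 0.72) in ERRα+/+ cells and -0.10 ± 0.22 (SE, adjusted p = 0.738) and 0.20 ± 0.25 (SE, adjusted p = 0.527) in ERRα-/- cells.

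The clear falls of the ER group were those of Pdia4 and Sdf2l1. Pdia4, a protein disulphide isomerase, went from 0.41, 0.84 and 0.98 to -1.0, -0.79 and -0.38 in ERRα+/+ and from 0.19, 0.65 and 0.90 to -0.70, -0.41 and -0.28 in ERRα-/- cells, falls of 1.47 ± 0.24 (SE, adjusted p = 0.000808) and 1.04 ± 0.24 (SE, adjusted p = 0.00486). Sdf2l1, a partner of ER HSP40 proteins, went from 2.64, 2.90 and 2.97 to 1.94, 1.72 and 1.89 and from 2.67, 3.13 and 3.16 to 2.08, 2.33 and 2.20, falls of 0.99 ± 0.17 (SE, adjusted p = 0.00107) and 0.78 ± 0.17 (SE, adjusted p = 0.00357). PBS and LPS arrays did not overlap for either gene in either genotype, and both differences had 1 sign in all 3 replicates. Pdia3, another disulphide isomerase, differed by -0.26 ± 0.18 (SE, adjusted p = 0.256) and -0.03 ± 0.18 (SE, adjusted p = 0.904). Dnajb9, an ER HSP40 and usual XBP1 target, was lower in 3 of 3 replicates of both genotypes, with differences of -0.39 ± 0.25 (SE, adjusted p = 0.229) and -0.25 ± 0.25 (SE, adjusted p = 0.44), and passed with the replicate block (adjusted p = 0.00723 and 0.0458), with the slide as a block (adjusted p = 0.00342 and 0.029), on slide 2 alone (adjusted p = 0.00451 and 0.0113) and with array weights (adjusted p = 0.0365 and 0.0145).

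Herpud1, a membrane protein of ERAD, varied strongly by slide. It stood at 2.43, 5.04 and 5.00 in ERRα+/+ PBS, 4.68, 5.57 and 5.63 in ERRα+/+ LPS, 3.76, 5.41 and 5.41 in ERRα-/- PBS and 4.33, 5.00 and 5.00 in ERRα-/- LPS arrays. Replicate 1 of both PBS groups was far below replicates 2 and 3. The LPS difference was 1.14 ± 0.68 (SE, adjusted p = 0.195) in ERRα+/+ and -0.08 ± 0.68 (SE, adjusted p = 0.932) in ERRα-/- cells, and of the 2 the ERRα+/+ one passed with the replicate block (adjusted p = 0.0234) and the slide as a block (adjusted p = 0.0151). On slide 2 alone Herpud1 rose by 0.58 in ERRα+/+ cells (adjusted p = 0.000372) and fell by 0.41 in ERRα-/- cells (adjusted p = 0.0019).

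**Figure D2:**
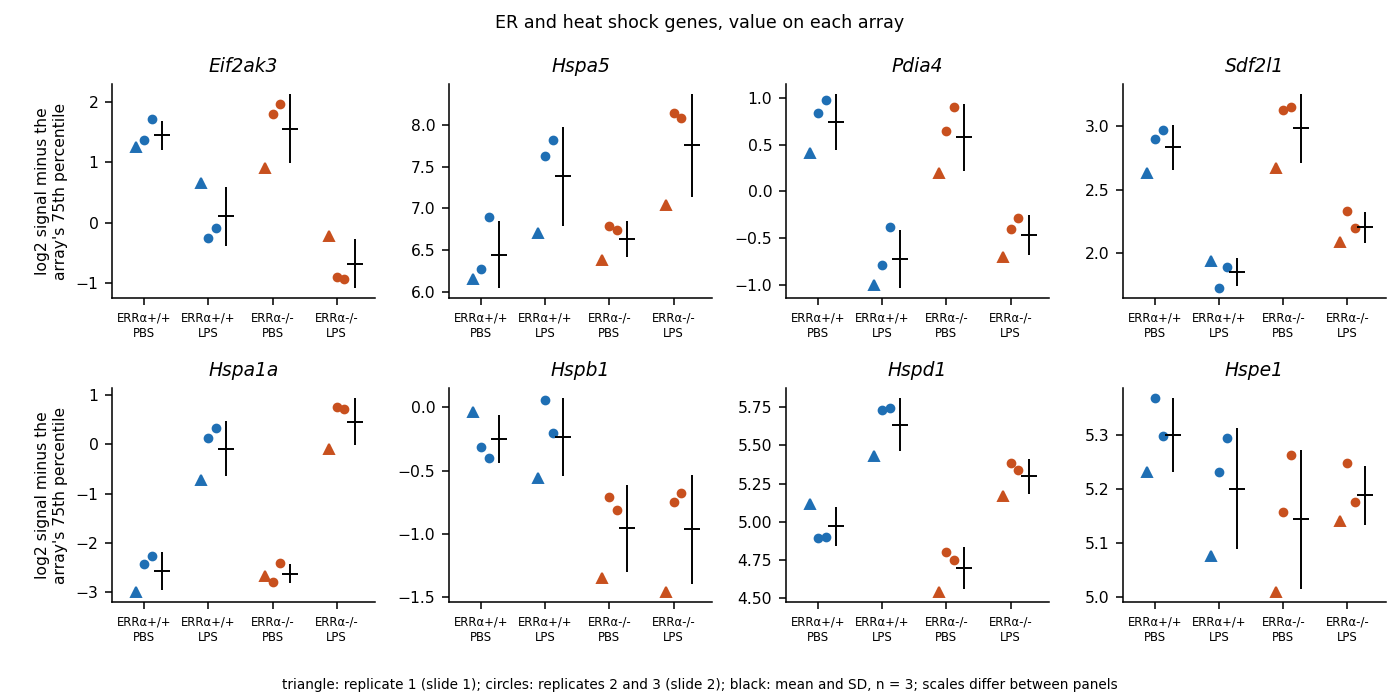
Level of 8 ER and heat shock genes (log2 signal relative to the 75th percentile of its array, y axis, with a scale of its own in each panel) on each of the 12 arrays by group; triangles are replicate 1 on slide 1, circles replicates 2 and 3 on slide 2, and black bars the mean and SD of 3. PBS and LPS arrays are apart for Eif2ak3, Pdia4, Sdf2l1, Hspa1a and Hspd1 in both genotypes, and Hspb1 is lower on all 6 ERRα-/- arrays than on the ERRα+/+ arrays of the same treatment.

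Of the integrated stress response factors and signalling targets, 3 of 7 rose in ERRα+/+ cells and 4 of 7 in ERRα-/- cells, and none fell. Among all genes 22.2% rose in ERRα+/+ and 25.1% in ERRα-/- cells. Atf4, the transcription factor at the centre of the branch, stood at 6.97, 7.23 and 6.97 with PBS and 7.72, 8.88 and 9.06 with LPS in ERRα+/+ cells, and at 6.56, 6.85 and 6.97 and 7.76, 9.06 and 8.99 in ERRα-/- cells. All LPS arrays were above all PBS arrays. Atf4 rose by 1.5 ± 0.40 (SE, adjusted p = 0.0105) in ERRα+/+ and 1.81 ± 0.40 (SE, adjusted p = 0.00349) in ERRα-/- cells, and its second probe gave 2.07 and 2.00 (no test). ATF4 is mostly controlled at translation, which RNA arrays do not read.

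Chac1, which encodes a glutathione-degrading enzyme and is a usual target of ATF4, had the largest rise of the 34 members in both genotypes. It stood at -1.18, -1.77 and -1.77 with PBS and 1.0, 3.77 and 3.72 with LPS in ERRα+/+ cells, and at -2.42, -2.75 and -2.61 and 0.79, 2.87 and 2.75 in ERRα-/- cells. The groups were far apart, and replicate 1 of each LPS group was well below the other two. The rise was 21.2-fold in ERRα+/+ cells (log2 4.41 ± 0.72 SE, adjusted p = 0.000792) and 26.5-fold in ERRα-/- cells (log2 4.73 ± 0.72 SE, adjusted p = 0.000475). Ppp1r15a, the phosphatase subunit that ends the eIF2 block, went from 3.58, 3.22 and 3.18 to 6.58, 5.32 and 5.60 in ERRα+/+ and from 3.62, 3.21 and 3.34 to 6.43, 5.30 and 5.34 in ERRα-/- cells. Here replicate 1 of each LPS group was the highest. Ppp1r15a rose by 2.51 ± 0.36 (SE, adjusted p = 0.00038) and 2.30 ± 0.36 (SE, adjusted p = 0.000577).

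Trib3, a pseudokinase that feeds back on ATF4 and CHOP, stood at 1.5, 0.93 and 1.27 with PBS and 1.12, 3.51 and 3.66 with LPS in ERRα+/+ cells, and at 0.17, 0.52 and 0.63 and 1.28, 2.98 and 2.81 in ERRα-/- cells. In ERRα+/+ replicate 1 LPS was below PBS, so those groups overlapped. The difference of 1.53 ± 0.63 (SE, adjusted p = 0.0709) did not pass there, while Trib3 rose by 1.92 ± 0.63 (SE, adjusted p = 0.0271) in ERRα-/- cells. In ERRα+/+ cells it passed with the replicate block (adjusted p = 0.0331), with the slide as a block (adjusted p = 0.0228), on slide 2 alone (2.48, adjusted p = 1.18e-05), with array weights (2.35, adjusted p = 1.87e-05) and without LPS replicate 1 of either genotype (adjusted p = 0.00181 and 0.0449). That ERRα-/- call was lost without any 1 of 5 ERRα-/- arrays, all but LPS replicate 1 (adjusted p up to 0.0986). Ddit3, which encodes CHOP, stood at 2.64, 0.89 and 1.17 with PBS and 1.35, 1.59 and 1.51 with LPS in ERRα+/+ cells. With PBS replicate 1 lay above the LPS arrays and replicates 2 and 3 below them. Ddit3 differed by -0.09 ± 0.43 (SE, adjusted p = 0.886) over 3 replicates, by -1.29 on slide 1 and by 0.52 on slide 2 (adjusted p = 0.0104 on slide 2 alone). In ERRα-/- cells it differed by 0.20 ± 0.43 (SE, adjusted p = 0.718), and by -0.33 on slide 1. On slide 2 alone Ddit3 was called as rising in ERRα-/- cells too, as were all 7 genes of this group (against 38% of all genes).

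Ddit4 and Vldlr completed this group without a call. Ddit4, an inhibitor of mTORC1, differed by 1.26 ± 0.81 (SE, adjusted p = 0.227) and 1.11 ± 0.81 (SE, adjusted p = 0.279), was higher in 3 of 3 replicates of both genotypes and passed with the replicate block (adjusted p = 0.00805 and 0.0132). Its level in replicate 1 was far lower than in replicates 2 and 3, at -0.31, 1.5 and 2.01 with PBS and 0.95, 3.01 and 3.00 with LPS in ERRα+/+ cells. Vldlr, a lipoprotein receptor, differed by 0.82 ± 0.64 (SE, adjusted p = 0.318) and 0.60 ± 0.64 (SE, adjusted p = 0.466), and likewise passed with the block (adjusted p = 0.00526 and 0.0203).

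**Figure D3:**
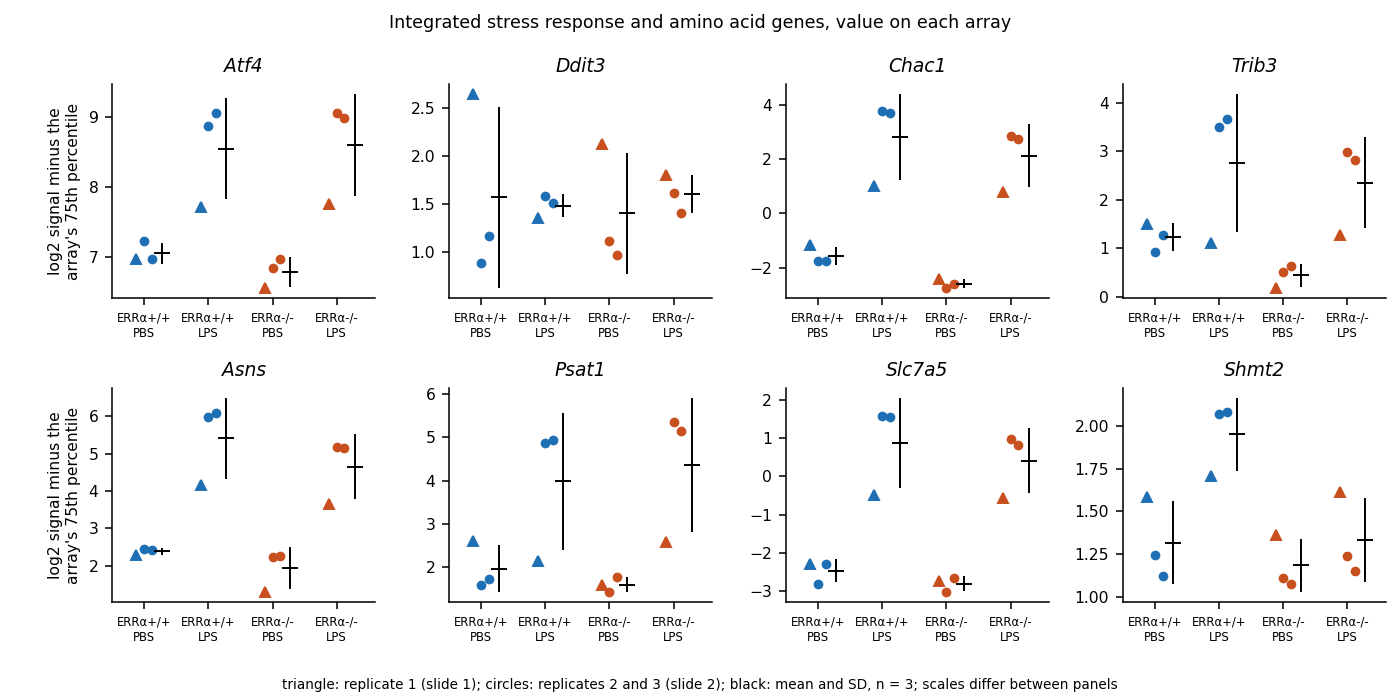
Level of 8 integrated stress response and amino acid genes (log2 signal relative to the 75th percentile of its array, y axis, with a scale of its own in each panel) on each of the 12 arrays by group; triangles are replicate 1 on slide 1, circles replicates 2 and 3 on slide 2, and black bars the mean and SD of 3. In the LPS groups replicate 1 of Chac1, Trib3, Asns, Psat1 and Slc7a5 is below replicates 2 and 3.

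ATF4 with C/EBP partners is known to bind C/EBP-ATF elements. The letters TGATGNAA, on either strand, were in 1304 of 32851 windows (3.97%) and in the windows of 5 of 32 members: Chac1, Trib3, Vldlr, Asns and Herpud1. These stretches show the match in capitals, in the direction of the gene, with that of Asns read on the gene's strand and the others on the opposite strand. The match began 193 bases before the start site of Chac1, 200 before that of Vldlr and 23 before that of Asns, and at base 15 after the start of Trib3. No match in a window says only that these letters were not there.
Chac1 (chr2:119351037-119351068, + strand): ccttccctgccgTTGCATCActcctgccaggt
Vldlr (chr19:27216808-27216839, + strand): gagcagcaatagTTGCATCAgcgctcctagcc
Trib3 (chr2:152344028-152344057, - strand): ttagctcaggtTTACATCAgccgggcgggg
Asns (chr6:7693213-7693244, - strand): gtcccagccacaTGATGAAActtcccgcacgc

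The amino acid supply and folate-linked genes formed the group with the highest share of calls. Of 7, 6 rose in each genotype, against 22.2% of all genes in ERRα+/+ and 25.1% in ERRα-/- cells. The median difference was 2.28 in ERRα+/+ and 2.73 in ERRα-/- cells. Mthfd2, the mitochondrial folate enzyme, went from 1.55, 0.83 and 0.52 to 3.84, 4.90 and 4.98 in ERRα+/+ and from 0.93, 0.55 and 0.55 to 3.63, 4.44 and 4.45 in ERRα-/- cells. It rose 12.2-fold (log2 3.61 ± 0.36 SE, adjusted p = 4.16e-05) and 11.2-fold (log2 3.49 ± 0.36 SE, adjusted p = 5.46e-05), with every LPS array above every PBS array. Asns, asparagine synthetase, went from 2.28, 2.45 and 2.43 to 4.17, 5.98 and 6.11 and from 1.28, 2.24 and 2.27 to 3.66, 5.17 and 5.14, rises of 3.03 ± 0.55 (SE, adjusted p = 0.00133) and 2.73 ± 0.55 (SE, adjusted p = 0.00219). With replicates 2 and 3 averaged, Asns just missed the threshold in both genotypes (adjusted p = 0.0536 and 0.0536).

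Slc7a5 and Slc3a2 encode the light and heavy chains of the LAT1 transporter of large neutral amino acids. Slc7a5 went from -2.30, -2.81 and -2.29 to -0.49, 1.58 and 1.54 in ERRα+/+ and from -2.74, -3.03 and -2.65 to -0.56, 0.98 and 0.82 in ERRα-/- cells, rises of 3.34 ± 0.55 (SE, adjusted p = 0.000765) and 3.22 ± 0.55 (SE, adjusted p = 0.000861). The 2 probes of Slc7a5 disagreed in size: the other gave 1.13 and 0.70 (no test), and the mean of both rose by 2.23 (adjusted p = 0.000781) and 1.96 (adjusted p = 0.00147). Slc3a2 went from 6.06, 5.76 and 5.57 to 6.74, 6.93 and 6.96 and from 5.80, 5.18 and 5.22 to 6.56, 6.78 and 6.65, rises of 1.08 ± 0.20 (SE, adjusted p = 0.00139) and 1.26 ± 0.20 (SE, adjusted p = 0.000512), which came to 0.62 and 0.71 with quantile normalization (adjusted p = 0.0297 and 0.0157).

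Phgdh and Psat1 are enzymes of serine synthesis from a glycolytic intermediate. Phgdh went from 0.34, 0.05 and -0.04 to 1.60, 2.76 and 2.84 in ERRα+/+ and from -0.75, -0.41 and -0.40 to 1.74, 2.13 and 2.06 in ERRα-/- cells, rises of 2.28 ± 0.30 (SE, adjusted p = 0.000202) and 2.50 ± 0.30 (SE, adjusted p = 0.000117), and its second probe gave 2.19 and 2.48 (no test). Psat1 stood at 2.59, 1.58 and 1.72 with PBS and 2.15, 4.87 and 4.93 with LPS in ERRα+/+ cells, and at 1.59, 1.43 and 1.77 and 2.57, 5.36 and 5.16 in ERRα-/- cells. Like Trib3, it was lower with LPS in ERRα+/+ replicate 1 and far higher in replicates 2 and 3. The difference of 2.02 ± 0.83 (SE, adjusted p = 0.0685) did not pass in ERRα+/+ cells, and Psat1 rose by 2.77 ± 0.83 (SE, adjusted p = 0.0172) in ERRα-/- cells, a call lost without any 1 of ERRα-/- PBS replicate 2, LPS replicate 2 or LPS replicate 3 (adjusted p up to 0.0708). In ERRα+/+ cells it passed with the replicate block (adjusted p = 0.0481), with the slide as a block (adjusted p = 0.0343), on slide 2 alone (3.25, adjusted p = 4.28e-06), with array weights (3.10, adjusted p = 1.78e-05) and without LPS replicate 1 of either genotype (adjusted p = 0.00652 and 0.0249). Shmt2, which makes glycine from serine in mitochondria, rose by 0.63 ± 0.19 (SE, adjusted p = 0.0194) in ERRα+/+ cells, from 1.58, 1.25 and 1.12 to 1.70, 2.07 and 2.08. That call was lost without any 1 of replicates 2 and 3 of ERRα+/+ PBS or LPS (adjusted p up to 0.0747) and with median centring (0.59, adjusted p = 0.0516). In ERRα-/- cells it stood at 1.36, 1.11 and 1.08 with PBS and 1.61, 1.24 and 1.15 with LPS, groups that overlapped, and the difference was 0.15 ± 0.19 (SE, adjusted p = 0.54).

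The size of the LPS response differed between slides for many members, the widest gaps being in the ATF4 branch. A fit with a slide term and a slide-by-LPS term, chosen after seeing the data, tested whether the response on slide 2 differed from that on slide 1 over both genotypes. Of 34 members, 12 had a higher LPS difference on slide 2 and 4 a lower one, against 16.7% and 17.7% of all genes. The 12 were Xbp1, Atf4, Ddit3, Chac1, Trib3, Asns, Psat1, Mthfd2, Slc3a2, Slc7a5, Dnajb1 and Hsp90aa1. Psat1 had the largest such difference of the members, 3.19 ± 0.28 (SE, adjusted p = 0.000156): its LPS difference was -0.45 on slide 1 and 3.25 on slide 2 in ERRα+/+ cells, and 0.99 and 3.66 in ERRα-/- cells. Chac1 followed with 2.81 ± 0.22 (SE, adjusted p = 0.000103), with LPS differences of 2.19 on slide 1 against 5.51 on slide 2 in ERRα+/+ cells, and of 3.21 against 5.49 without ERRα. For Trib3 it was 2.04 ± 0.33 (SE, adjusted p = 0.0021) and for Slc7a5 1.93 ± 0.27 (SE, adjusted p = 0.00108). The 4 with a lower LPS difference on slide 2 were Ern1, Eif2ak3, Herpud1 and Ppp1r15a, whose LPS difference was 3.00 on slide 1 and 2.26 on slide 2 in ERRα+/+ cells. Nos2 ran along with this: it had 3.76, 7.01 and 7.08 in ERRα+/+ LPS and 4.96, 6.81 and 6.77 in ERRα-/- LPS arrays, against -1.21 to -0.90 on the 6 PBS arrays. The slide and the culture of replicate 1 cannot be told apart here. The labels' protocols also name an array format with fewer spots for replicate 1 than for replicates 2 and 3, although all 12 files hold 1 design of 62976 spots.

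**Figure D4:**
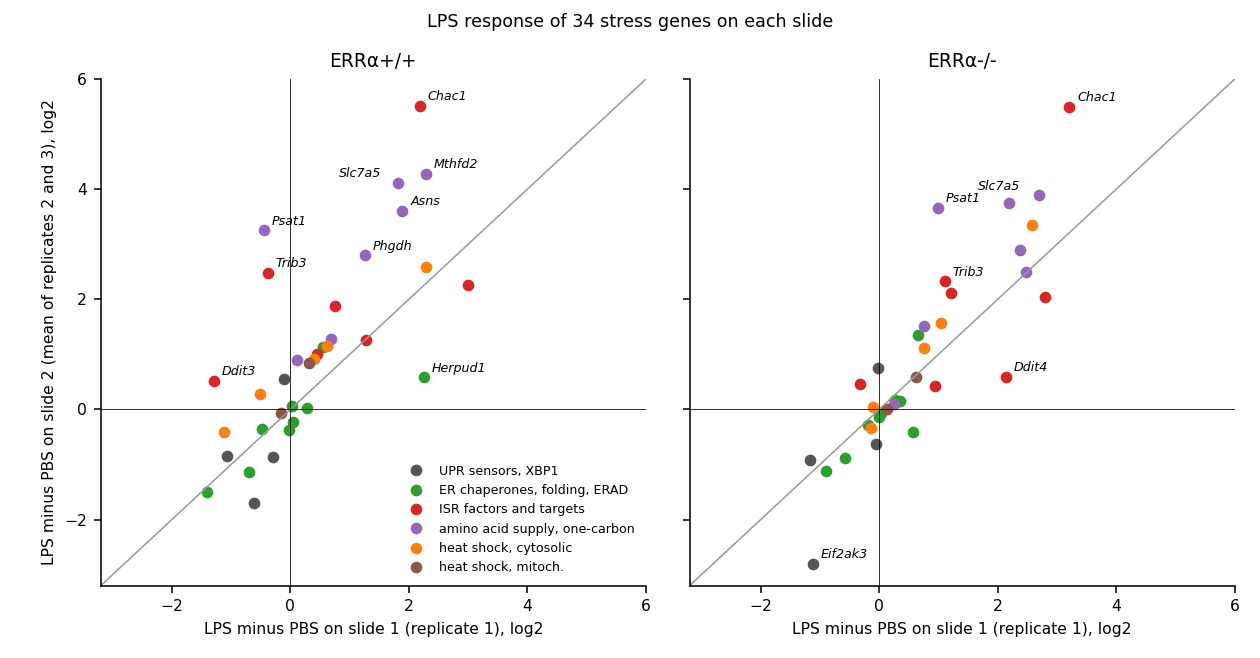
LPS minus PBS (log2) on slide 1 (replicate 1, x axis) against slide 2 (mean of replicates 2 and 3, y axis) for the 34 members, coloured by role, in each genotype; the grey line marks equal responses, and the named genes lie far from it. Chac1, Psat1, Trib3 and Slc7a5 are above the line in both genotypes, Herpud1 is far below it in ERRα+/+ cells, and Eif2ak3 and Ddit4 are below it in ERRα-/- cells.

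Among the cytosolic heat shock genes, 3 of 5 rose in both genotypes and 1 fell in ERRα+/+ cells. Of all genes 22.2% rose and 23.7% fell in ERRα+/+ cells, and 25.1% rose in ERRα-/- cells. Hspa1a, the stress-inducible HSP70, went from -3.01, -2.44 and -2.26 to -0.72, 0.12 and 0.33 in ERRα+/+ and from -2.67, -2.79 and -2.42 to -0.10, 0.76 and 0.72 in ERRα-/- cells. The groups were far apart, and the LPS difference on slide 1 and slide 2 was 2.29 and 2.58 in ERRα+/+ cells, and 2.58 and 3.35 in ERRα-/- cells. Hspa1a rose 5.58-fold (log2 2.48 ± 0.32 SE, adjusted p = 0.000203) and 8.53-fold (log2 3.09 ± 0.32 SE, adjusted p = 5.52e-05). Hspa1b is a near-identical neighbouring copy with no probe of its own here, so the Hspa1a probe may read both. Hsp90aa1, the inducible cytosolic HSP90, rose by 0.98 ± 0.23 (SE, adjusted p = 0.0053) and 1.39 ± 0.23 (SE, adjusted p = 0.00067), with 0.51 and 0.85 after quantile normalization (adjusted p = 0.017 and 0.000992). Dnajb1, an HSP40 that works with HSP70, rose by 0.74 ± 0.23 (SE, adjusted p = 0.0237) and 1.0 ± 0.23 (SE, adjusted p = 0.00505). The ERRα+/+ call was lost with quantile normalization (log2 0.31, adjusted p = 0.139), with median centring (0.70, adjusted p = 0.062), with no filter on dim probes (adjusted p = 0.053) and without any 1 of replicates 1 and 3 of ERRα+/+ PBS or 2 and 3 of ERRα+/+ LPS (adjusted p up to 0.0991).

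Hsph1 and Hspb1 did not follow. Hsph1, an HSP110 that recharges HSP70 with ATP, fell by 0.65 ± 0.17 (SE, adjusted p = 0.011) in ERRα+/+ cells, from 3.01, 2.72 and 2.50 to 1.89, 2.17 and 2.24. In ERRα-/- cells its difference was -0.27 ± 0.17 (SE, adjusted p = 0.217), although PBS and LPS arrays did not overlap there either. On slide 2 alone the ERRα+/+ difference was -0.41 (adjusted p = 0.00806). Hspb1, the small heat shock protein HSP27, did not pass: -0.04, -0.31 and -0.40 with PBS against -0.56, 0.06 and -0.20 with LPS in ERRα+/+ cells, a difference of 0.01 ± 0.26 (SE, adjusted p = 0.966) with a 95% interval of -0.56 to 0.59.

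Of the mitochondrial chaperonin pair, Hspd1 passed and Hspe1 did not, and the difference between them was not tested. Hspd1 (HSP60) rose by 0.67 ± 0.15 (SE, adjusted p = 0.0045) in ERRα+/+ and 0.60 ± 0.15 (SE, adjusted p = 0.00703) in ERRα-/- cells, from 5.11, 4.90 and 4.90 to 5.43, 5.73 and 5.74 and from 4.54, 4.80 and 4.75 to 5.17, 5.39 and 5.34. Hspe1 (HSP10), its lid, stood at 5.23, 5.37 and 5.30 with PBS and 5.08, 5.23 and 5.29 with LPS in ERRα+/+ cells and differed by -0.10 ± 0.13 (SE, adjusted p = 0.558), and by 0.04 ± 0.13 (SE, adjusted p = 0.796) in ERRα-/- cells. Its other 2 probes gave 0.20 and -0.14 for ERRα+/+ cells, and -0.03 and 0.01 for ERRα-/- cells (no test). Both calls of Hspd1 were lost with quantile normalization (log2 0.21 and 0.08, adjusted p = 0.2 and 0.602) and the ERRα-/- call with median centring (0.51, adjusted p = 0.0672). On the quantile scale Hspe1 was called as falling in both genotypes, by 0.56 in ERRα+/+ cells and by 0.47 in ERRα-/- cells (adjusted p = 0.0122 in the latter). The size of the Hspe1 difference, and in ERRα-/- cells its direction, thus depends on the scale.

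The heat shock element GAANNTTCNNGAA, or its complement pattern TTCNNGAANNTTC, was in 198 of 32851 windows (0.603%) and in those of 3 members, Hspd1, Hspe1 and Hsph1. The windows of Hspa1a and Dnajb1 held no match to these strict letters. The genes Hspd1 and Hspe1 lie head to head on chromosome 1. For the annotated Hspd1 start site 216 bases from that of Hspe1, the windows share the stretch shown. It is printed once for each direction, with the overlapping matches in capitals. Another annotated Hspd1 start site, 95 bases from that of Hspe1, has a window that does not reach this stretch. The ERR element core AAGGTCA, found in 4.72% of all windows, was in the windows of these 2 members alone among the 32, again as 1 shared stretch, 48 bases before the start of Hspe1.
Hspe1 (chr1:55088053-55088082, + strand): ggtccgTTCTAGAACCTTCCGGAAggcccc
Hspd1 (chr1:55088053-55088082, - strand): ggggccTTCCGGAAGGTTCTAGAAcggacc
Hsph1 (chr5:149636280-149636308, - strand): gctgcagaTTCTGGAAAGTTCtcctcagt

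Other genes of these pathways, from lists chosen like the members with earlier results known, gave the following. Of 29 tested amino acid, tRNA charging and folate genes of 33 listed, 16 rose and 2 fell in ERRα+/+ cells (against 22.2% and 23.7% of all genes). In ERRα-/- cells 11 rose and 5 fell (against 25.1% and 25.3%). Slc7a11, the cystine transporter chain that pairs with Slc3a2, rose in both genotypes (adjusted p = 0.000241 and 0.00026) but was above background on only 1 of 3 PBS arrays of each. With each PBS array taken at no less than its lowest signal among probes above background, Slc7a11 was at least 66.2-fold higher with LPS in ERRα+/+ and at least 30.7-fold higher in ERRα-/- cells. The arginine and lysine transporter Slc7a1 rose by 3.25 ± 0.31 (SE, adjusted p = 2.86e-05) and 3.05 ± 0.31 (SE, adjusted p = 4.5e-05), and Aars, alanyl-tRNA synthetase, by 1.82 ± 0.18 (SE, adjusted p = 3.8e-05) and 1.57 ± 0.18 (SE, adjusted p = 9.44e-05). Got1, the cytosolic aspartate aminotransferase, fell by 1.79 ± 0.19 (SE, adjusted p = 4.73e-05) and 1.68 ± 0.19 (SE, adjusted p = 7.63e-05), and the glutamine carrier Slc1a5 fell by 0.73 ± 0.24 (SE, adjusted p = 0.0294) and 0.88 ± 0.24 (SE, adjusted p = 0.0116). The ERRα+/+ call of Slc1a5 was lost without any 1 of ERRα+/+ PBS replicate 1, LPS replicate 2 or LPS replicate 3 (adjusted p up to 0.119) and without the filter (adjusted p = 0.0635). With normexp background the log2 differences of Slc7a11 were 4.20 and 3.51 (adjusted p = 9.81e-06 and 3.57e-05).

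Of 22 tested other integrated stress response genes of 23 listed, 10 rose and 3 fell in ERRα+/+ cells (against 22.2% and 23.7% of all genes). In ERRα-/- cells 11 rose and 3 fell (against 25.1% and 25.3%). Nupr1, a stress-induced chromatin protein, rose by 5.51 ± 0.41 (SE, adjusted p = 7.12e-06) and 5.20 ± 0.41 (SE, adjusted p = 1.11e-05). Of the eIF2 kinases, Eif2ak2 (PKR), also an interferon-induced gene, rose by 3.25 ± 0.45 (SE, adjusted p = 0.000282) and 3.13 ± 0.45 (SE, adjusted p = 0.000327), and Eif2ak4 (GCN2), the sensor of uncharged tRNA, fell by 1.95 ± 0.35 (SE, adjusted p = 0.00129) and 2.01 ± 0.35 (SE, adjusted p = 0.000973). Ppp1r15b, the constitutive counterpart of Ppp1r15a, rose by 2.21 ± 0.61 (SE, adjusted p = 0.0131) and 2.75 ± 0.61 (SE, adjusted p = 0.00394), with the ERRα+/+ call lost without LPS replicate 2 or 3 (adjusted p up to 0.057). Txnip and Vegfa fell, by 1.53 and 1.54 in ERRα+/+ and by 1.91 and 1.61 in ERRα-/- cells.

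The 40 other ER genes gave 11 rises and 3 falls in ERRα+/+ cells, with a median of -0.03 (against 22.2% and 23.7% of all genes). In ERRα-/- cells they gave 10 rises and 4 falls, with a median of 0.11 (against 25.1% and 25.3%). With quantile normalization the balance of these genes turned, to 6 rises and 9 falls in ERRα+/+ cells (median -0.26). In ERRα-/- cells it was 4 rises and 8 falls (median -0.17). All genes moved the same way on that scale: 18.4% rose and 28.4% fell in ERRα+/+ cells (median -0.14). In ERRα-/- cells these shares were 20% and 30.1% (median -0.15). The oxidase Ero1a rose by 2.09 ± 0.23 (SE, adjusted p = 6.49e-05) and 1.68 ± 0.23 (SE, adjusted p = 0.000244), while its relative Ero1b fell by 0.86 ± 0.31 (SE, adjusted p = 0.045) and 1.04 ± 0.31 (SE, adjusted p = 0.018). Ube2j1, an ERAD ubiquitin-conjugating enzyme, rose by 1.26 and 1.32 and Ufm1, a ubiquitin-like modifier, by 0.99 and 1.15. Crebrf fell by 1.87 and 1.30, and Erlec1, an ERAD lectin, by 0.95 and 1.15. The ERRα+/+ call of Ero1b was lost without any 1 of 8 arrays, all but ERRα+/+ PBS replicate 2, ERRα+/+ LPS replicate 1 and ERRα-/- LPS replicates 1 and 3 (adjusted p up to 0.156), with median centring (adjusted p = 0.0511), with normexp background (-0.56, adjusted p = 0.204) and without the filter (adjusted p = 0.0867). Its ERRα-/- call was lost without ERRα-/- PBS replicate 1 or LPS replicate 3 (adjusted p up to 0.0764). The ERRα-/- call of Crebrf was lost without any 1 of ERRα-/- PBS replicate 2 or 3 or LPS replicate 1 (adjusted p up to 0.0911), without the filter (adjusted p = 0.0502) and with normexp background, which gave -0.97 and -0.58 (adjusted p = 0.0145 and 0.106). Crebrf was above background on 2 of 3 ERRα-/- LPS arrays. The call of Ufm1 in ERRα+/+ cells was lost without PBS replicate 2 or LPS replicate 3 (adjusted p up to 0.0646), and the mean of its probes gave 0.65 and 0.59 (adjusted p = 0.0163 and 0.0228). Of 43 tested other heat shock and proteostasis genes of 44 listed, 19 rose and none fell in ERRα+/+ cells (against 22.2% and 23.7% of all genes). In ERRα-/- cells 23 rose and 1 fell (against 25.1% and 25.3%). With quantile normalization it was 11 and 1 in ERRα+/+ cells (against 18.4% and 28.4%) and 10 and 2 in ERRα-/- cells (against 20% and 30.1%). The largest rises were those of Dnaja2, 2.22 ± 0.39 (SE, adjusted p = 0.00121) and 2.45 ± 0.39 (SE, adjusted p = 0.000613), and of Stip1, the HSP70-HSP90 adaptor, 2.18 ± 0.21 (SE, adjusted p = 3.3e-05) and 2.29 ± 0.21 (SE, adjusted p = 2.62e-05). Hspa1l, a neighbour of Hspa1a close to it in sequence, rose by 1.40 ± 0.36 (SE, adjusted p = 0.00932) and 2.08 ± 0.36 (SE, adjusted p = 0.00099), with 0.58 and 1.06 on normexp background (adjusted p = 0.0647 and 0.00372), and was above background on 2 of 3 ERRα+/+ PBS arrays. With replicates 2 and 3 averaged, Crebrf, Dnaja2, Erlec1, Ero1b, Hspa1l, Ppp1r15b, Slc1a5, Txnip, Ube2j1, Ufm1 and Vegfa lost the call in at least 1 genotype.

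Between genotypes, no member passed the test in the fit of 12 arrays without a block, under PBS, under LPS, over both or for the difference of the LPS response. The lowest adjusted p was 0.505, 0.395, 0.115 and 1 in that order, and 1, 5, 5 and 0 members had an unadjusted p under 0.05. Few genes passed at all: under PBS 0.0686% of the 13116 were higher and 0.358% lower in ERRα-/- cells, under LPS 0.0762% and 0.0534%, and over both treatments 0.396% and 0.961%. For the difference of the LPS response, 0% were higher and 0% lower with adjusted p under 0.05, and 294 of 13116 had an unadjusted p under 0.05. The half-width of a member's 95% interval was 0.29 to 1.83 (median 0.67) within a treatment and 0.20 to 1.29 (median 0.47) over both, and 20 of 34 intervals under PBS and 17 of 34 under LPS lay within a change of 1 log2 unit in either direction. For the other members the interval reached a change of that size. For the difference of the LPS response the half-width was 0.41 to 2.59 (median 0.95).

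**Figure D5:**
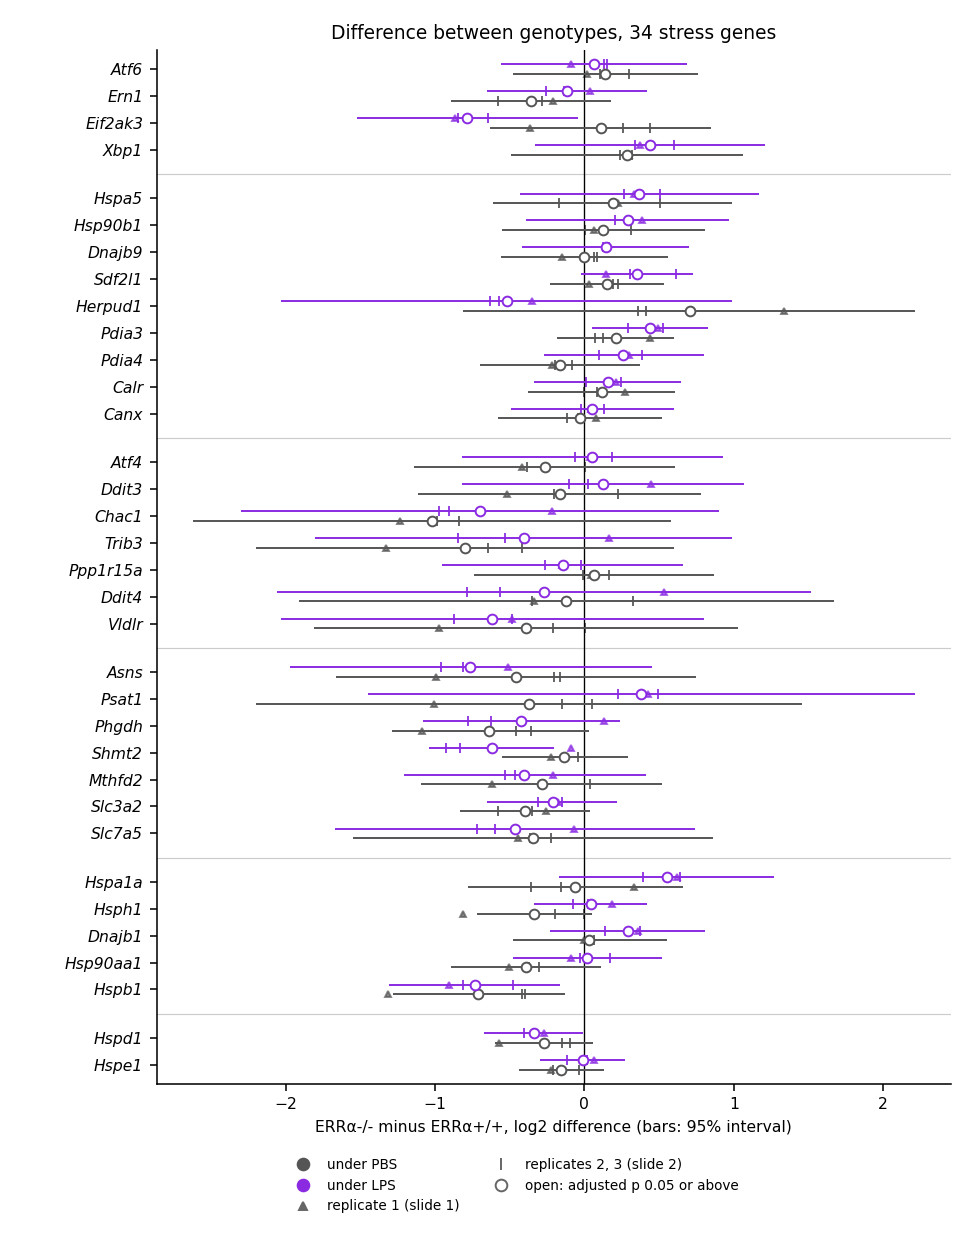
Difference between ERRα-/- and ERRα+/+ cells (log2, x axis) of each of the 34 members under PBS (grey) and LPS (purple); circles are means of 3 replicates with their 95% interval, all open because no adjusted p was under 0.05, and triangles and ticks are the single replicates. Hspb1 lies at -0.71 and -0.73, with all replicates below 0, and most amino acid genes lie to the left.

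Hspb1 came closest. It stood at -0.04, -0.31 and -0.40 in ERRα+/+ PBS, -0.56, 0.06 and -0.20 in ERRα+/+ LPS, -1.35, -0.71 and -0.81 in ERRα-/- PBS and -1.46, -0.75 and -0.68 in ERRα-/- LPS arrays. Every ERRα-/- array was below every ERRα+/+ array of the same treatment. Over both treatments it differed by -0.72 ± 0.18 (SE, adjusted p = 0.115), with a 95% interval of -1.13 to -0.31. With the replicate block it was lower in ERRα-/- cells (adjusted p = 0.0394), the only member called in that fit, where 1.14% of all genes were higher and 2.66% lower in ERRα-/- cells. With slide as the block it was also called (adjusted p = 0.022), together with Vldlr (adjusted p = 0.0487), where 1.66% of all genes were higher and 3.29% lower. The difference was -1.11 on slide 1 and -0.52 on slide 2.

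By role, the ERRα-/- minus ERRα+/+ difference of the amino acid genes was below 0 in 7 of 7 under PBS (median -0.37) and 6 of 7 under LPS (median -0.42), all without a call. The exception under LPS was Psat1, at 0.38 ± 0.83 (SE, adjusted p = 0.995). Under LPS the median was -0.66 on slide 2 (6 of 7 below 0) and -0.09 on slide 1 (5 of 7). Under PBS it was -0.18 on slide 2 and -0.62 on slide 1 (7 of 7 on both). The ER chaperone and folding genes were above 0 over both treatments in 9 of 9 (median 0.14), without a call. After quantile normalization 1 of 9 was below 0, as were 1 on slide 1 and 2 on slide 2. Of the 40 other ER genes, 24 were above 0 and 16 below (median 0.053). On slide 1 these were 17 and 23 (median -0.045), and on slide 2 27 and 13 (median 0.096). Over all 13116 genes tested, 6119 were above 0. The integrated stress response genes were below 0 in 7 of 7 over both treatments (median -0.20), in 6 of 7 on slide 1 and 7 of 7 on slide 2. Ddit3 (-0.02) and Ppp1r15a (-0.04) lay close to 0. Under PBS 6 of 7 were below 0 (median -0.265) and under LPS 5 of 7 (median -0.272). Under LPS slide 1 had 3 of 7 below 0 (median 0.038) and slide 2 had 6 of 7 (median -0.672). Of the 22 other integrated stress response genes, 13 were below 0 over both treatments and 9 above (median -0.082). Beside these, the median over all genes was -0.02, -0.01 and -0.02 under PBS, under LPS and over both. The same control and LPS arrays enter these values and the LPS differences above, so they are not separate evidence. Markers of several other cell types lay below 0 in this comparison. The median difference over both treatments was -0.57 for neutrophil and granulocyte precursor markers (8 of 8 below 0), -0.48 for mast cell and basophil markers (4 of 4), -0.99 for erythroid and megakaryocyte markers (4 of 4, with 1 called) and -0.73 for stromal and endothelial markers (6 of 6). It was 0.11 for macrophage markers (2 of 9 below 0), 0.02 for dendritic cell markers (3 of 6) and -0.20 for lymphocyte markers (4 of 5). Over both treatments the slide 1 median was -0.04 for neutrophil and granulocyte precursor markers (4 of 8 below 0). It was 0.25 for mast cell and basophil markers (none of 4) and 0.30 for lymphocyte markers (none of 5). On slide 2 these medians were -0.94, -0.81 and -0.33. Under PBS alone the 3 lists had medians of -0.565 (8 of 8 below 0), -0.39 (4 of 4) and 0.245 (none of 5) on slide 1. On slide 2 they had -0.957, -0.958 and -0.284. Under LPS they had 0.874, 0.911 and 0.219 on slide 1, and -0.827, -0.522 and -0.384 on slide 2. Over both treatments the erythroid and megakaryocyte markers stood at -1.08 on slide 1 and -0.89 on slide 2. The stromal and endothelial markers stood at -0.72 and -0.49. Summed linear levels of the neutrophil and granulocyte precursor markers were 306 to 441 in ERRα+/+ PBS, 266 to 534 in ERRα+/+ LPS, 232 to 286 in ERRα-/- PBS and 320 to 495 in ERRα-/- LPS arrays. The erythroid and megakaryocyte sums were lower in ERRα-/- than in ERRα+/+ arrays of the same treatment without overlap. Their part in the genotype values was not tested.

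Chac1 had the largest difference between genotypes over both treatments, -0.86 ± 0.51 (SE, adjusted p = 0.704), at -0.72 on slide 1 and -0.93 on slide 2. That of Asns was -0.61 ± 0.39 (SE, adjusted p = 0.741), at -0.75 and -0.54, and that of Phgdh -0.53 ± 0.21 (SE, adjusted p = 0.429), at -0.48 and -0.55. These 3 had 1 sign on both slides. Phgdh was called without ERRα+/+ LPS replicate 1 (-0.73, adjusted p = 0.0276). Shmt2 differed under LPS by -0.62 ± 0.19 (SE, adjusted p = 0.395), and by -0.09 on slide 1 and -0.88 on slide 2. Of the pathway lists only Mthfd1l, the mitochondrial partner of Mthfd2 in formate release, was called between genotypes: it stood at 1.95, 1.88 and 1.98 in ERRα+/+ LPS and 1.14, 1.04 and 0.91 in ERRα-/- LPS arrays, lower by 0.91 ± 0.13 (SE, adjusted p = 0.0312). Over both treatments Mthfd1l was lower by 0.56 ± 0.10 (SE, adjusted p = 0.0171). The LPS call was lost without any 1 of 8 arrays, all but replicates 1 and 2 of ERRα+/+ PBS and replicate 1 of ERRα-/- PBS and LPS (adjusted p up to 0.186). The call over both treatments was lost without any 1 of 6, replicates 2 and 3 of each group but ERRα+/+ PBS (adjusted p up to 0.0641). Both were lost with median centring (adjusted p = 0.133 and 0.0688), without the filter (adjusted p = 0.179 and 0.0738) and with replicates 2 and 3 averaged, and the LPS call also with quantile normalization (adjusted p = 0.0529) and the mean of probes (adjusted p = 0.051).

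The fit with slide and slide-by-LPS terms keeps the point estimates and takes the slide difference out of the error. In it 14 members were called between genotypes over both treatments, 3 higher and 11 lower in ERRα-/- cells, against 7.75% and 10.7% of all genes. Those lower were Ern1, Chac1, Trib3, Vldlr, Asns, Phgdh, Shmt2, Mthfd2, Slc3a2, Hspb1 and Hspd1, with Chac1 (adjusted p = 0.00162), Hspb1 (adjusted p = 0.00678) and Asns (adjusted p = 0.00879) first. Those higher were Xbp1 (0.36 ± 0.06 SE, adjusted p = 0.00465), Pdia3 (0.32 ± 0.07 SE, adjusted p = 0.0154) and Sdf2l1 (0.25 ± 0.07 SE, adjusted p = 0.0345). Under PBS 1 member was higher (Herpud1) and 3 were lower (Chac1, Slc3a2, Hsp90aa1), against 3.14% and 4.06%, and under LPS 5 were higher (Xbp1, Sdf2l1, Pdia3, Hspa1a, Dnajb1) and 5 lower (Eif2ak3, Chac1, Asns, Shmt2, Hspb1), against 6.08% and 7.81%. On slide 2 alone 1 member was higher and 3 lower under PBS (against 4.64% and 4.9% of all genes), and 3 and 11 under LPS (8.13% and 8.78%). There were 2 and 11 over both (9.87% and 10.5%), and 0 and 4 for the difference of the LPS response (2.13% and 2.08%). With array weights the counts higher and lower were 0 and 1 under PBS (4.25% and 4.8%), 4 and 8 under LPS (8.14% and 10.2%). They were 3 and 9 over both (9.41% and 10.7%) and 0 and 2 for the difference of the LPS response (1.68% and 1.91%). These calls count replicates 2 and 3 as separate samples on 1 slide, and none of them holds in the fit of 12 arrays without slide terms or weights.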

How the data were processed

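RNA of cultured macrophages was read on 12 1-colour Agilent arrays (62976 spots). The sources used here do not say whether each array had a culture of its own. The deposited spot intensity is the processed signal of Agilent Feature Extraction (11.5.1.1 per the file headers, 9.3.2.1 per the submitters' processing notes), background-subtracted and detrended, with probes designed on mm9; the authors' value table holds the same intensity (largest difference 0). From this, log2 signals minus each array's 75th percentile were computed after control and outlier-flagged spots were left out. Spots were averaged by probe, probes were named through their accession in a RefSeq table (GRCm38.p6), and a probe was kept if some group had it well above background in each of its 3 replicates, with the brightest probe standing for a gene. One mean per group was fitted with limma 3.58.1 in R 4.3.3 (lmFit, eBayes, 2-sided), with Benjamini-Hochberg adjustment over 13116 genes in each of 6 comparisons. The groups came from the labels. The number of arrays, 3 per group, limits the precision.

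The labels number the replicates, and the deviations of same-numbered arrays from their group means correlated in every pair (0.14 to 0.78, 18 pairs), so the numbers were taken to pair the arrays; the fit with the replicate number as a block is an alternative, which called 26 members for LPS in ERRα+/+ cells. Arrays of different numbers on slide 2 also correlated (0.13 to 0.56, 12 pairs), so these correlations cannot tell pairing by number from a shared slide. The other alternatives were quantile and median scaling, normexp background (offset 50), no filter, a stricter filter, the mean of probes, the slide as a block, each slide alone, array weights, leaving out each array and the deposited table. Slide-by-LPS terms and averaging replicates 2 and 3 were added after seeing the data. Members and lists were chosen with earlier results of these data known. The erythroid and megakaryocyte sum covers the 4 genes above background on all arrays, and the rest of that list is not reported here. Beside the members, the rule named up to 3 genes with the largest rise and 3 with the largest fall per pathway list among those called with the same sign for LPS in both genotypes, and any called between genotypes. The fit was tested on simulated data with independent errors on each array and no slide differences. That test cannot show how the calls fare when arrays of 1 slide deviate together. Promoter windows came from RefSeq and were searched with Python 3.11.15, and figures were drawn with matplotlib 3.10.9.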

Additional observations from a re-analysis of the deposited data

Results flagged for a closer look

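Herpud1 had genotype differences of opposite sign in the 2 treatments: ERRα-/- minus ERRα+/+ was 0.70 under PBS and -0.52 under LPS, with all 3 replicates above 0 under PBS and all 3 below 0 under LPS. The difference of the LPS response was -1.22 ± 0.96 (SE) and did not pass the test over 12 arrays (limma, adjusted p = 1). On slide 2 alone it was -0.99 (limma, adjusted p = 0.0149).

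Pdia4 also had genotype differences of opposite sign, -0.16 under PBS with all 3 replicates below 0 and 0.26 under LPS with all 3 above 0, a difference of the LPS response of 0.42 ± 0.34 (SE; limma, adjusted p = 1). Single outlying arrays of a gene were not tested for in groups of 3. Array weights over all genes were 0.117 to 0.229 for replicate 1 of the 4 groups and 1.03 to 5.11 for replicates 2 and 3.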

How the results depend on the processing

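Of the 19 members called for LPS in each genotype, 15 in ERRα+/+ and 16 in ERRα-/- cells were called without each array in turn, and the counts then ranged from 15 to 22 and from 16 to 20. Slide 2 alone, where replicates 2 and 3 are close, called 29 in ERRα+/+ cells (21 upwards and 8 downwards, against 36.5% and 35.8% of all genes), while the mean of both as 1 value left 7 and 9. The genotype comparisons had 0 calls under PBS, under LPS, over both treatments and for the difference of the LPS response. They gave 4, 14, 13 and 4 on slide 2 alone (higher and lower among all genes 4.64% and 4.9%, 8.13% and 8.78%, 9.87% and 10.5%, 2.13% and 2.08%). They gave 1, 12, 12 and 2 with array weights (4.25% and 4.8%, 8.14% and 10.2%, 9.41% and 10.7%, 1.68% and 1.91%). With slide and slide-by-LPS terms they gave 4, 10, 14 and 0 (3.14% and 4.06%, 6.08% and 7.81%, 7.75% and 10.7%, 0.694% and 0.534%). Over both treatments the slide as a block gave 2 (1.66% and 3.29% of all genes). The replicate number as a block gave 1 (Hspb1, against 1.14% and 2.66%), and leaving out single arrays 0 to 1. Beside the LPS calls named above and Hspb1, the replicate block changed no other call of a member. Direction reversed for Ddit3 in ERRα+/+ cells on slide 2 alone (0.52 against -0.09, a call only on slide 2) and for Hspe1 in ERRα-/- cells with quantile normalization (-0.47 against 0.04, a call only there). The cause was not tested. Signal was well above background for all members tested, so the number of arrays and the spread between slides limit these values. Slide 1 alone, with 1 array a group, gives values and no test.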
